A study of Homo sapiens with 6 samples.

Results

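The genes described here are the protein-coding histone genes of the cluster on chromosome 6p22. They were taken by symbol, as the H1, H2A, H2B, H3 and H4 genes that RefSeq (GRCh38) places on chromosome 6 in the interval from H2AC1, which starts at 25726063, to H2BC17, which ends at 27893891. RefSeq places 55 such genes there. Of these, 49 had a row among the 58288 genes of the expression file, and H4C2, H3C2, H3C3, H2BC7, H2BC8 and H4C6 were not analysed here. The RNA is from single cell clones of K562, an erythroleukemia line of human origin, that stably expressed a tagged mutant of the transcription factor MYB (3xFLAG at one end, HA at the other) under selection with 200 µg/ml G418. In 2KR-MYB the lysines that accept SUMO are changed to arginine, and in ANAA-MYB the motif that binds SUMO without a covalent bond is changed. All cells had also received the siRNA si2992 against endogenous MYB, 24 h before the harvest. The 2KR-MYB rescue is represented by 3 libraries of clone 18 and the ANAA-MYB rescue by 3 libraries of clone 5, so mutant and clone cannot be told apart, and the p-values measure the spread between libraries of 1 clone.

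Histones package DNA: H2A, H2B, H3 and H4 form the core of the nucleosome, and H1 binds the linker DNA beside it. The genes of this cluster are replication-dependent, which means that their mRNAs accumulate while a cell copies its DNA. These mRNAs are unspliced and end in a conserved stem-loop instead of a poly(A) tail. The stem-loop is bound by SLBP, which accompanies the mRNA through processing and translation, and the RNA of the U7 particle pairs with a sequence just downstream to guide the cut. The libraries were selected for poly(A), so a level here is the level of what such a selection retains, and a difference in poly(A) tail use and a difference in transcript number cannot be told apart.

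The sequence that ends these mRNAs was present in the annotation of every one of the 49 genes. In the GENCODE 44 transcript sequences, each gene had 1 transcript with a stem-loop of 16 bases at most 11 bases from its end, and all 49 of these transcripts consisted of a single exon, 386 to 797 bases long. The forms below are shown because they are the shared 3′ signal of the cluster. Capitals mark the bases of the 2 arms of the stem, and lower case marks the loop.
Common form, in 28 genes of the H1, H2A, H2B and H3 families: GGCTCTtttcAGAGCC
Form with another last loop base, in 7 genes including H2BC4, H2BC5 and H2BC11: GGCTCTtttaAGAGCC
Common form of the H4 genes, in 7 of 10: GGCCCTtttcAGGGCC
Second form of the H4 genes, in 2: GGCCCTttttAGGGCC
Form of H2AC11, with 1 pair in the stem that is not A-T or G-C: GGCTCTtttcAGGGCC
Form of H2AC15, with 1 pair in the stem that is not A-T or G-C: GGTTCTtttcAGAGCC
The other forms each occurred in 1 gene, H2BC10, H3C6 or an H4 gene, and differed from the forms above in the loop.

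MYB itself (ENSG00000118513) was read at 69.0, 61.2 and 67.5 FPKM with 2KR-MYB, against 53.6, 55.3 and 62.0 FPKM with ANAA-MYB. FPKM counts the fragments per kilobase of a transcript, scaled to the mapped fragments of the library. The difference was 0.21 ± 0.070 (SE) on the log2 scale and did not pass the threshold (limma, adjusted p = 0.0616). RNA of the introduced and of the endogenous gene share this row. The FPKM of a library summed to between 579920 and 633662, and the depth behind the values is unknown. All 9 K562 markers were detected, GATA1, KLF1 and TFRC were lower in 2KR-MYB, and the 9 summed to 1784 to 1904 FPKM in the 2KR-MYB libraries and to 2003 to 2401 in the ANAA-MYB libraries. Of 9 markers of other cell types, 5 reached a mean of 1 FPKM, among them CD3D, EPCAM, COL1A1 and COL1A2, MS4A1 was listed at 0 in every library, and the list summed to 79.4 to 86.7 FPKM against 93.2 to 113.2 FPKM.

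The cluster was read very unevenly. The linker histone gene H1-2 (ENSG00000187837, chromosome 6, 26055740 to 26056470, minus strand) had the highest mean of the 6 libraries, 224.4 FPKM, and the core histone gene H2BC12 (ENSG00000197903, 27138293 to 27146858, minus strand) followed with 217.9 FPKM. These 2 genes held 59.1% of the summed FPKM of the 49 genes. A further 9 genes had means between 10 and 100 FPKM and held 34.2%, 12 had means between 1 and 10 FPKM and held 6.09%, and the 26 below 1 FPKM held 0.598%. The ranges of H1-2, 199.4 to 269.7 FPKM, and of H2BC12, 187.9 to 238.0 FPKM, overlapped, so their order is not set by these libraries. The next genes in the order were H2AC6 at 59.8 to 69.9 FPKM and H2BC4 at 33.8 to 49.7 FPKM, whose ranges lay apart from each other and from the first pair. From H4C8 (28.7 to 32.3 FPKM) through H2BC15, H2AC13, H3C10, H2BC11, H2BC5 and H4C11 (7.70 to 13.8 FPKM), the range of each gene overlapped that of the next.

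**Figure D1:**
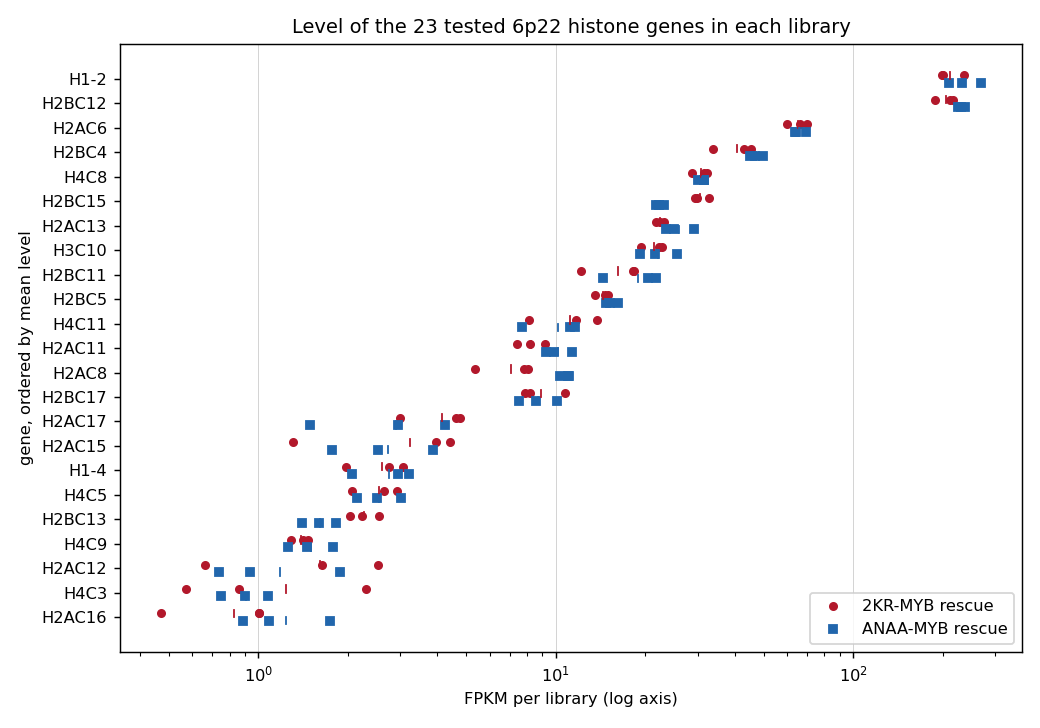
Level of the 23 tested histone genes, whose means reach 1 FPKM, as FPKM per library on a log axis, with circles for the 2KR-MYB rescue, squares for the ANAA-MYB rescue and a tick for each mean of 3 libraries. H1-2 and H2BC12 stand highest, from 187.9 FPKM up, and the circles and squares of most genes overlap.

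The 26 genes below a mean of 1 FPKM could not be compared and were not tested. Of these, 13 were listed at 0 in all 6 libraries: H2AC1, H2BC1, H1-1, H3C1, H2BC3, H3C4, H4C7, H3C8, H2BC10, H2BC14, H4C12, H3C11 and H4C13. The first pair, H2AC1 and H2BC1, lie at the telomere-side end of the cluster and are known from the testis. The other 13 had means from 0.0452 FPKM (H2AC14) to 0.938 FPKM (H3C12), with H4C1, H2AC4, H1-6, H2BC6, H4C4, H2AC7, H3C6, H1-3, H3C7, H2BC9 and H1-5 between them. Of these, 2 were picked after their values were seen and are given by library. H3C7 was read at 0.274, 0.311 and 0.285 FPKM in the 2KR-MYB libraries and was listed at 0 in the 3 ANAA-MYB libraries. H1-6, a testis linker histone, was read at 0.571, 0.353 and 0.475 FPKM against 0.285, 0.314 and 0.218 FPKM. Among these 13, the libraries did not overlap for H3C7, H1-6 and H2AC4 (0.173 to 0.371 against 0.139 to 0.163 FPKM), all higher in 2KR-MYB. The share was 44.9% among all tested genes, which leave out genes this low. Values this low may rest on few fragments, and an entry of 0 can also be a failed estimate.

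The families differed in how many genes were read. The H1 family had 2 of 6 genes at a mean of 1 FPKM or more, H2A had 8 of 12, H2B had 7 of 13, H3 had 1 of 8 and H4 had 5 of 10. H3C10 was the H3 gene above that level. H2B held 44.5% of the summed FPKM, H1 30.5%, H2A 15.7%, H4 6.31% and H3 3.10%. Since nucleosomes hold the 4 core histones in equal numbers, the unequal sums describe the RNA in these libraries and not the protein. H3-3A and H3-3B, which encode the replication-independent H3.3 and carry poly(A) tails, had means of 424.1 and 342.2 FPKM, each above the sum of all 8 H3 genes of the cluster in every library (20.6 to 26.2 FPKM).

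Along the chromosome, the genes formed 2 groups, the first starting within 559 kb of H2AC1 and the second beginning 1406 kb from it. Of the 28 genes of the first group, 9 reached a mean of 1 FPKM, and of the 21 of the second group 14 did. The summed FPKM was divided nearly evenly, with 53.2% in the first group and 46.8% in the second.

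**Figure D2:**
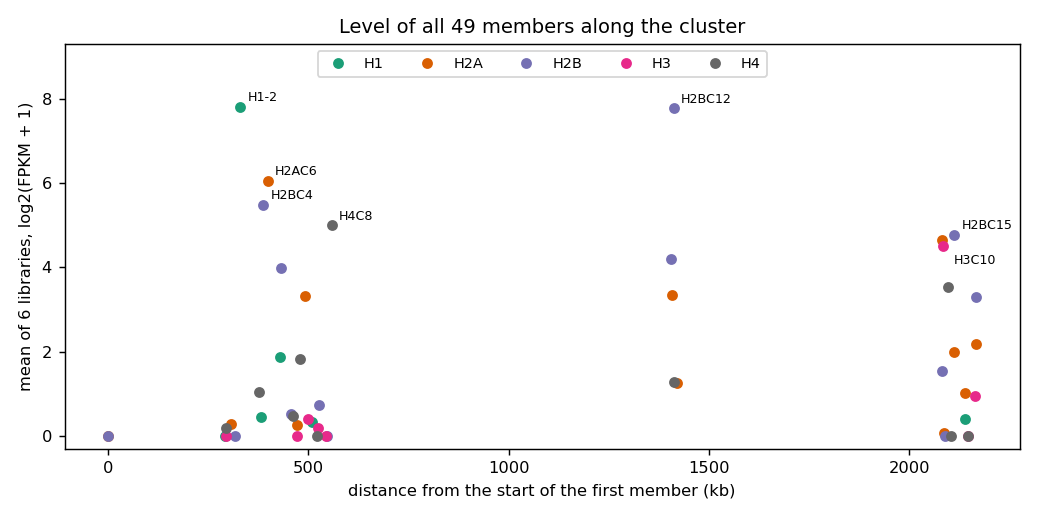
Mean level of all 49 genes, as log2(FPKM + 1) over the 6 libraries, against distance from the start of the first gene in kb, coloured by family. H1-2 in the first group and H2BC12 in the second stand highest, with genes near 0 beside both.

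The levels are given here by the kinds of transcript end in the annotation, with no test. In GENCODE, 11 of the 49 genes also had a transcript that does not end at the stem-loop, and 15 of the 16 such transcripts were spliced. Of these 11 genes, 7 had a mean of at least 10 FPKM (H2BC4, H2AC6, H2BC5, H4C8, H2BC11, H3C10 and H2BC15), and H2AC1, H2BC6, H3C6 and H3C12 had means below 1 FPKM. The median over the 11 was 17.5 FPKM. Of the 38 genes with the stem-loop end alone, 4 had a mean of at least 10 FPKM (H1-2, H2BC12, H2AC13 and H4C11), and the median was 0.349 FPKM. By summed FPKM the order was the other way, with 70.2% in these 38 genes, H1-2 and H2BC12 included, and 29.8% in the 11. H2BC12 spans 8566 bp in RefSeq but has 1 short transcript in GENCODE, so it has a longer form in RefSeq alone. H3C4, listed at 0 in every library, likewise spans 2510 bp. With genes of a RefSeq span over 1000 bp counted as well, the class with another end had 13 genes. It then held 58.9% of the summed FPKM, against 41.1% in the other 36, so the order of the sums depends on the annotation. This is a description of 2 annotations and these libraries, and whether annotators drew on poly(A)-selected reads in naming the longer forms was not tested.

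RNAs without a poly(A) tail were also looked at outside the histone families. Of 12 such RNAs with a row, 6 were listed at 0 in all libraries and 4 reached a mean of 1 FPKM. The RNA of the 7SK particle, RN7SK (ENSG00000202198), was read at 39.4, 144.0 and 38.7 FPKM in the 2KR-MYB libraries, against 53.0, 28.7 and 85.5 FPKM in those of ANAA-MYB. The 12 RNAs summed to 62.9, 203.4 and 67.2 FPKM in 2KR-MYB and to 91.6, 61.6 and 120.3 FPKM in ANAA-MYB, so the groups overlapped and replicate 2 of the 2KR-MYB rescue was highest. None of the 4 tested RNAs passed the threshold (limma), where 13% of all tested genes did. None had an unadjusted p under 0.05, beside 39.4% of all tested genes. Their standard errors were wide, from 0.27 (SNORA73B) to 0.54 (RN7SK) on the log2 scale. The library with the highest sum of these RNAs had 777.2 FPKM over the histone genes, and the library with the lowest, replicate 2 of ANAA-MYB, had 788.8 FPKM. The part of poly(A) selection in the histone values was not tested.

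The summed FPKM of the 49 genes did not separate the rescues. It was 662.9, 777.2 and 716.6 FPKM in the 2KR-MYB libraries and 738.0, 788.8 and 805.2 FPKM in the ANAA-MYB libraries, which is 0.114% to 0.129% of all FPKM. The means were 718.9 ± 57 and 777.3 ± 35 FPKM (SD, n = 3 each), lower in 2KR-MYB, and the groups overlapped. The difference of the sums was not tested. Each of the 5 families overlapped between the rescues as well. H2B came nearest to separating, with 288.3, 340.8 and 328.2 FPKM against 339.8, 348.8 and 349.1 FPKM, and in H4 the 2KR-MYB mean was the higher one, 47.9 ± 2.51 against 46.5 ± 2.63 FPKM (SD, n = 3 each). Without H1-2 and H2BC12, the other 47 genes summed to 275.6, 325.5 and 305.6 FPKM in 2KR-MYB and to 303.2, 327.8 and 297.5 FPKM in ANAA-MYB.

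**Figure D3:**
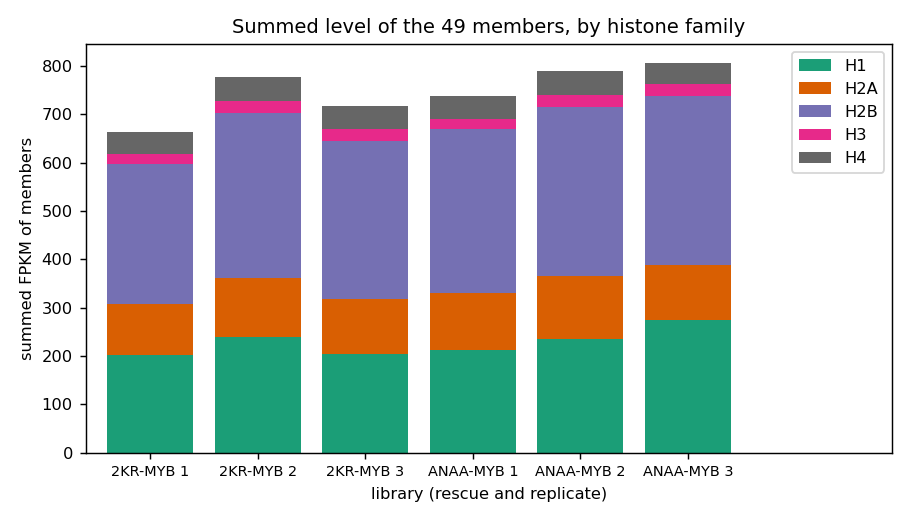
Summed FPKM of the 49 histone genes in each of the 6 libraries, stacked by family from H1 at the bottom to H4 at the top. The bars of the rescues overlap in height, from 662.9 to 777.2 FPKM in 2KR-MYB and from 738.0 to 805.2 FPKM in ANAA-MYB.

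The question put to single genes was whether their level differed between cells whose MYB cannot be conjugated to SUMO and cells whose MYB cannot bind it through the motif. The 23 genes whose mean reached 1 FPKM were compared, 2KR-MYB minus ANAA-MYB, with limma on the scale of log2(FPKM + 1), fitted over all 12634 genes with such a mean, with Benjamini-Hochberg adjustment and a threshold of 0.01. This scale understates the change of low genes. H2BC15 was higher with 2KR-MYB, and the other 22 genes did not pass. That is 4.35% of the 23 called as higher, beside 5.57% of all tested genes, and 0 of 23 called as lower, beside 7.42%. An unadjusted p under 0.05 was found for 6 of the 23 (26.1%), beside 39.4% of all tested genes. At a threshold of 0.05, H2AC8 was added as lower in 2KR-MYB, which makes 2 of 23 beside 26.9% of all tested genes. The libraries of the 2 rescues did not overlap for 6 of the 23 genes, or 26.1%, beside 44.9% of all tested genes. The median log2 difference over the 23 genes was -0.036, with 8 genes above 0 and 15 below, and the median over all tested genes was -0.015.

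**Figure D4:**
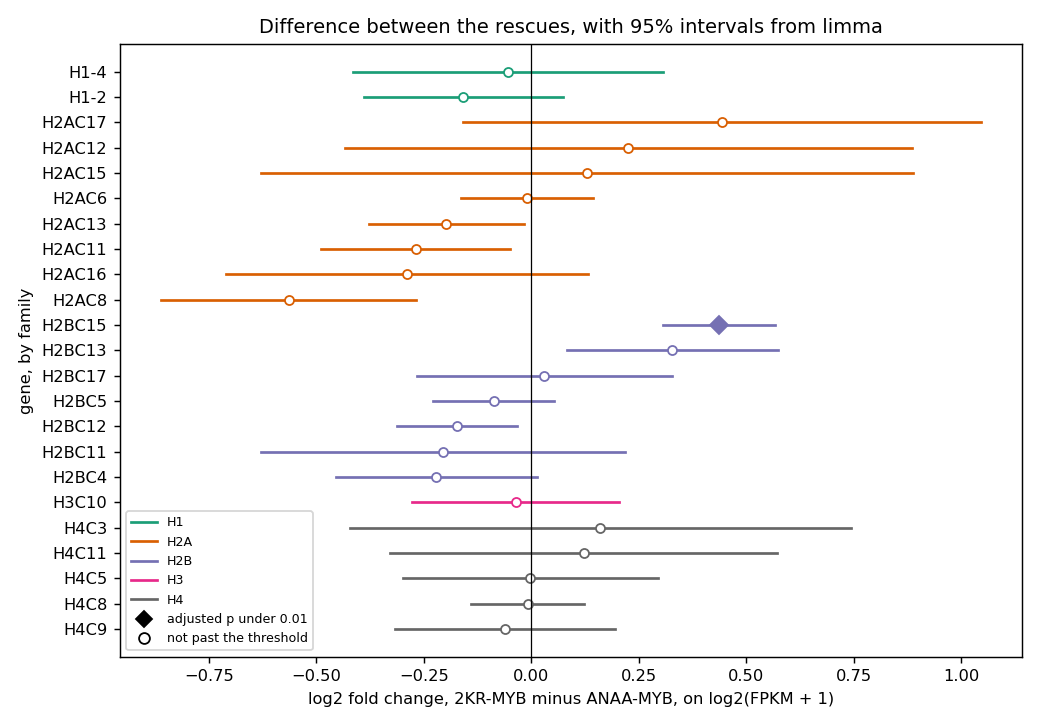
Log2 fold change (on log2(FPKM + 1), 2KR-MYB minus ANAA-MYB) of the 23 tested genes, by family, with 95% intervals from limma that are not adjusted for the number of genes. H2BC15 at 0.44 is the filled diamond past the threshold, H2AC8 at -0.56 lies farthest below 0, and the interval of H4C8 runs from -0.14 to 0.12.

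H2BC15 (ENSG00000233822, chromosome 6, 27838569 to 27839110, plus strand) encodes an H2B core histone. It was read at 29.4, 32.6 and 29.8 FPKM in the 2KR-MYB libraries, against 21.7, 22.2 and 23.0 FPKM in those of ANAA-MYB. All 3 libraries of 2KR-MYB lay above all 3 of ANAA-MYB. The means were 30.6 ± 1.78 and 22.3 ± 0.654 FPKM (SD, n = 3 each), and the log2 difference was 0.44 ± 0.056 (SE), with a 95% interval of 0.31 to 0.57 (limma, adjusted p = 0.00119). The exact two-sided permutation test gave p = 0.1, the smallest that 3 against 3 libraries allow. No 150-base stretch of its annotated transcripts, the length of a read, occurred in another histone gene. GENCODE gives the gene a transcript of up to 4137 bases beside the one that ends at the stem-loop, and the row does not tell which of these the reads came from.

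H2AC8 (ENSG00000277075, 26216921 to 26217437, plus strand), an H2A gene, was the one nearest to the threshold among those that missed it, and is described although it falls outside the rule for named genes, after its values were seen. It was read at 7.80, 8.06 and 5.36 FPKM in 2KR-MYB, against 11.1, 11.0 and 10.3 FPKM in ANAA-MYB. The libraries did not overlap, and replicate 3 of 2KR-MYB was the lowest of the 6. The log2 difference was -0.56 ± 0.13 (SE), with a 95% interval of -0.86 to -0.27 (limma, adjusted p = 0.0148). Without that replicate the difference was -0.40 and the adjusted p 0.00632 (limma).

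The promoter sequences of these 2 genes are shown with those of H2BC12 and H4C8, to give the range of elements found before the genes of the cluster. They are RefSeq sequences of GRCh38.p14, from the strand of the gene, and end at the base before the annotated start. They run back 250 bases or to the neighbouring histone gene, if that is nearer. Capitals mark the TATA box (TATAAA), the CCAAT box (CCAAT), the octamer (ATTTGCAT) and the E2F site (TTTNGCGC), each on either strand, so that ATTGG is a CCAAT box on the other strand.
H2BC15, chr6:27838376-27838568, plus strand: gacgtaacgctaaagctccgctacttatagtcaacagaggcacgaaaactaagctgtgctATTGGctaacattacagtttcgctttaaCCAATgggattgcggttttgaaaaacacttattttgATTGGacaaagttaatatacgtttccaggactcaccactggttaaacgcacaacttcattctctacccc
H2AC8, chr6:26216689-26216920, plus strand: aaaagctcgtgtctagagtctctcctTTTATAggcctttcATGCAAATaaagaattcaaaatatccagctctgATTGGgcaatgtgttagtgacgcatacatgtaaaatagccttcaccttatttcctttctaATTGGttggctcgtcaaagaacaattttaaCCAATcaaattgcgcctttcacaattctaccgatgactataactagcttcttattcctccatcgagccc
H2BC12, chr6:27146859-27147105, minus strand: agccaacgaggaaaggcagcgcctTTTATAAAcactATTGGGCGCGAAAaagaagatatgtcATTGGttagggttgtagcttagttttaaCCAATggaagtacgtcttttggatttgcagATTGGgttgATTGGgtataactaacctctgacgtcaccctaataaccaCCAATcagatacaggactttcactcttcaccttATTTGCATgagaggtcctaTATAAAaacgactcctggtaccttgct
H4C8, chr6:26285535-26285784, minus strand: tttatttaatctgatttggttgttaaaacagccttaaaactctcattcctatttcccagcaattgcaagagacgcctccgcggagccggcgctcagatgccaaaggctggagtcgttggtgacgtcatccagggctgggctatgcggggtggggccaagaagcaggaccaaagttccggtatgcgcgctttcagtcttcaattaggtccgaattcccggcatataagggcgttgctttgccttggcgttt
In H2BC12 a TATA box starts 27 bases and an octamer 46 bases before the annotated start, and 1 element of 8 bases reads as a TATA box on both strands. The sequence of H2BC15 holds 3 CCAAT boxes and none of the other motifs in capitals, and that of H4C8 holds none of the 4.

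Promoters of 44 of the 49 genes were in the RefSeq table, each from 250 bases before to 50 after the start. The TATA box occurred in 30 of 44 (68.2%) and in 12% of all 27305 promoters. The CCAAT box occurred in 38 of 44 (86.4%, beside 35.7% of all promoters), in every H1, H2A, H2B and H3 promoter and in 2 of 8 H4 promoters. The octamer, known from H2B promoters, was in 20 of 44 (45.5%, beside 1.80%): in 9 of 11 H2A, 10 of 13 H2B, 1 of 6 H3 and no H1 or H4 promoters. H2A and H2B genes of this cluster often share 1 promoter region, so the same octamer can count for both. The E2F site was in 11 of 44 (25%, beside 1.83%). The short core to which MYB binds, AACNG, was in 39 of 44 (88.6%) and in 77.1% of all promoters, including those of H2BC15 and H2AC8. For H2AC8 the sequence printed above holds no such core, so its match lies in the part of the window that is not printed. These matches describe letters in a window and say nothing of binding.

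Among the linker histones, H1-2 was read at 199.4, 235.9 and 199.9 FPKM in 2KR-MYB, against 210.0, 231.3 and 269.7 FPKM in ANAA-MYB. The groups overlapped, and the log2 difference of -0.16 had a 95% interval of -0.39 to 0.073. H1-4 (ENSG00000168298) was read at 1.98, 3.06 and 2.76 FPKM against 2.06, 2.95 and 3.22 FPKM, with a log2 difference of -0.055 and an interval of -0.42 to 0.31.

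Among the H2A genes, H2AC6 (ENSG00000180573, 26124172 to 26124690, plus strand) was read at 59.8, 69.9 and 66.3 FPKM in 2KR-MYB, against 63.6, 69.5 and 64.2 FPKM in ANAA-MYB. Its log2 difference was -0.011, with an interval of -0.16 to 0.14, which leaves room for changes of that size. H2AC13 (ENSG00000196747) was read at 21.7, 22.4 and 23.1 FPKM against 23.6, 29.2 and 25 FPKM, which did not overlap but differed by -0.20 ± 0.078 (SE) and did not pass (limma, adjusted p = 0.0980). H2AC13 shares 52.9% of its 150-base stretches with H2AC14, so reads could be divided between them, and H2AC14 was listed at 0 in 5 of 6 libraries. H2AC11 also lay apart, at -0.27 ± 0.096 (SE), and did not pass (limma, adjusted p = 0.0718). H2AC12, H2AC15, H2AC16 and H2AC17 had means from 1.03 to 3.51 FPKM and log2 differences from -0.29 to 0.44 with wide intervals, that of H2AC15 running from -0.63 to 0.89. H2AC17 shares 58.3% of its 150-base stretches with the longer annotated transcript of H3C12.

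Among the H2B genes, H2BC12 was read at 187.9, 215.8 and 211.1 FPKM in 2KR-MYB, against 224.9, 229.7 and 238.0 FPKM in ANAA-MYB. The libraries did not overlap, and the log2 difference of -0.17 had a 95% interval of -0.31 to -0.033 but did not pass after adjustment (limma, adjusted p = 0.0690). No 150-base stretch of H2BC12 occurred in another histone gene, while 39.0% of its 75-base stretches did, all of them in other H2B genes. H2BC4 (ENSG00000180596, 26113170 to 26123926, minus strand) was read at 33.8, 45.2 and 42.8 FPKM against 46.9, 49.7 and 44.9 FPKM, with a log2 difference of -0.22 and an interval of -0.45 to 0.012. H2BC13, described after its values were seen, went the other way, with 2.23, 2.54 and 2.04 FPKM in 2KR-MYB and 1.40, 1.82 and 1.60 FPKM in ANAA-MYB, which did not overlap. Its difference of 0.33 ± 0.11 (SE) did not pass (limma, adjusted p = 0.0539). H2BC5, H2BC11 and H2BC17, at means of 8.84 to 17.5 FPKM, had log2 differences from -0.21 to 0.030, and their libraries overlapped.

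H3C10 (ENSG00000278828, 27810051 to 27810536, plus strand) encodes the replication-dependent H3 and was read at 19.3, 22.8 and 22.2 FPKM in 2KR-MYB, against 19.1, 25.5 and 21.6 FPKM in ANAA-MYB. The groups overlapped, with a log2 difference of -0.036 and an interval of -0.28 to 0.20. H3C12, the next H3 gene in level, was read at 1.28, 1.27 and 0.268 FPKM against 1.02, 0.290 and 1.51 FPKM and was not tested.

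None of the 5 tested H4 genes passed the threshold (limma), where 13% of all tested genes did. None had an unadjusted p under 0.05, beside 39.4% of all tested genes. H4C8 (ENSG00000158406, 26285126 to 26285534, minus strand) was read at 28.7, 31.5 and 32.3 FPKM in 2KR-MYB, against 31.6, 31.4 and 30.0 FPKM in ANAA-MYB, a log2 difference of -0.0090 with an interval of -0.14 to 0.12. H4C5 (ENSG00000276966) had the smallest difference of the 23 genes, -0.0030, from 2.06, 2.93 and 2.64 FPKM against 2.15, 2.50 and 3.01 FPKM, with a wider interval of -0.30 to 0.29. H4C11 (ENSG00000197238) was read at 11.7, 13.8 and 8.10 FPKM against 11.6, 11.1 and 7.70 FPKM, with an interval of -0.33 to 0.57. Of its 150-base stretches, 88.8% also occur in H4C12, which was listed at 0 in every library, so the level of H4C11 may belong to both. H4C3 and H4C9, at means of 1.08 and 1.44 FPKM, had log2 differences of 0.16 and -0.061. H4C9 lies within the span of H2BC12 on the opposite strand, and whether the strand was used in assigning reads is not stated.

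Neighbouring genes with a common promoter region ranged from like to very unlike levels. The cluster holds 10 pairs of an H2A and an H2B gene that start 194 to 248 bp apart and are read away from each other, and both genes were tested in 6 of these pairs. In 4 of the 6 the log2 differences had the same sign. H2BC4 and H2AC6 were the closest pair in level, with a ratio of 1.49. The ratio was 1.90 for H2BC11 and H2AC11, 2.52 for H2BC17 and H2AC17 and 12.5 for H2AC13 and H2BC13, and H2BC12 stood 156.2-fold above H2AC12. H2BC15 had a mean of 26.45 FPKM and its partner H2AC15 2.97 FPKM, at log2 differences of 0.44 and 0.13. H2AC15, given as its partner, was read at 1.31, 4.41 and 3.97 FPKM in 2KR-MYB, against 3.86, 2.53 and 1.76 FPKM in ANAA-MYB, so its libraries overlapped where those of H2BC15 did not. Within a family, Pearson's r of log2(FPKM + 1) over the 6 libraries had a median of 0.28 over the 21 pairs of H2B genes and of 0.090 over the 28 pairs of H2A genes, with values from -0.85 to 0.92. These are descriptions of 6 libraries in 2 groups.

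Of 50 non-histone genes with a row in the interval, 19 were tested, of which 2 were called higher and 1 lower, beside 5.57% and 7.42% of all tested genes. ZNF204P (0.57 ± 0.077, SE; limma, adjusted p = 0.00158) and PRSS16 (0.46 ± 0.073; adjusted p = 0.00320), a serine protease of the thymus, were higher in 2KR-MYB, and BTN2A2, a butyrophilin, was lower (-0.31 ± 0.058; adjusted p = 0.00678). With 1 library left out at a time, ZNF204P passed each time, PRSS16 passed without ANAA-MYB replicate 2 alone (adjusted p from 0.00258 to 0.0146, limma), and BTN2A2 did not pass (0.0130 to 0.0277). The median over the 19 was -0.015 on the log2 scale.

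Of the 13 replication-dependent genes outside 6p22 that had a row, 4 were tested and 1 passed, as lower in 2KR-MYB, where 7.42% of all tested genes were called lower. H2AC25 was lower in 2KR-MYB, at 7.21, 6.45 and 6.29 FPKM against 9.73, 11.6 and 9.08 FPKM (log2 difference -0.54 ± 0.095, SE; limma, adjusted p = 0.00480). With 1 library left out at a time it passed without ANAA-MYB replicate 3 alone (adjusted p from 0.00715 to 0.0200, limma). Of 12 replication-independent variants, 8 were tested and none passed at 0.01 (limma), while 4 had an unadjusted p under 0.05, a share of 39.4% among all tested genes. At a threshold of 0.05, 1 variant was higher in 2KR-MYB and 3 were lower, beside 26.9% of all tested genes in either direction. The libraries did not overlap for 4 of the 8 (50%), beside 44.9% of all tested genes. H2AZ1 and H3-3B were not among these 4. H2AZ1, which encodes H2A.Z, was read at 284.4 to 296.3 FPKM in 2KR-MYB, against 284.5 to 303.5 FPKM in ANAA-MYB. H3-3B differed by -0.00045 on the log2 scale, with 304.4 to 365.1 against 337.1 to 346.6 FPKM.

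A list of 30 genes that act in the transcription, processing or decay of histone mRNAs was tested in full. In it SNRPE was lower in 2KR-MYB (-0.30 ± 0.052, SE; limma, adjusted p = 0.00472) and none was higher (7.42% and 5.57% of all tested genes). Of the 30, 9 had an unadjusted p under 0.05, beside 39.4% of all tested genes. SNRPE encodes an Sm protein found in spliceosomal and U7 particles alike. With 1 library left out at a time, it passed without 2KR-MYB replicate 3 alone (adjusted p from 0.00700 to 0.0198, limma). SLBP, the stem-loop binding protein, was read at 65.3, 66.8 and 71.9 FPKM in 2KR-MYB, against 64.4, 63.2 and 64.8 FPKM in ANAA-MYB. The libraries did not overlap, and the log2 difference of 0.082 ± 0.049 (SE) did not pass (limma, adjusted p = 0.254). NPAT, the coactivator that gathers at the histone loci, was read at 11.0, 9.61 and 10.9 FPKM against 11.3, 10.3 and 11.6 FPKM, with a log2 difference of -0.069. Of 22 histone chaperones and their partners, TONSL was lower (-0.33 ± 0.055, SE; limma, adjusted p = 0.00423), none was higher, beside 7.42% and 5.57% of all tested genes, and the median log2 difference was -0.10. With a library left out, TONSL passed without ANAA-MYB replicate 3 alone (adjusted p from 0.00954 to 0.0171, limma).

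Genes of S phase and of exit from the cell cycle are given because histone mRNA levels go with DNA replication. Of 25 S phase genes, 4 (16%) were lower in 2KR-MYB and none was higher, beside 7.42% and 5.57% of all tested genes. TYMS, which makes thymidylate, differed by -0.60 ± 0.057 (SE; limma, adjusted p = 0.000334), and UHRF1, RRM2 and CCNE1 differed by -0.50, -0.47 and -0.42. The list had a median of -0.11 and summed to 1721 to 1821 FPKM in 2KR-MYB and to 1872 to 1995 FPKM in ANAA-MYB. Of 11 genes that go with exit from the cycle, 5 (45.5%) were higher in 2KR-MYB and none was lower, beside the same 5.57% and 7.42%. CDKN1A, the inhibitor p21, was read at 10.0, 10.7 and 8.51 FPKM against 3.59, 4.03 and 3.37 FPKM (1.20 ± 0.095, SE; limma, adjusted p = 0.000136). BTG2, an antiproliferative gene, differed by 1.19 on the log2 scale, and BTG1, TXNIP and CDKN1B by 0.43, 0.32 and 0.26. With 1 library left out at a time, CDKN1A and BTG2 passed each time (limma), TXNIP did not pass without 2KR-MYB replicate 2 (highest adjusted p 0.0114), BTG1 did not pass without 2KR-MYB replicate 1 or replicate 2 (highest 0.0115), and CDKN1B did not pass (0.0101 to 0.0277). The summed FPKM of the histone genes overlapped between the rescues while the sums of these 2 lists did not. The sums of the K562 markers and of the markers of other cell types did not overlap either. Among all tested genes, the libraries did not overlap for 44.9%. Whether the cells differed in cell cycle phase was not tested.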

How the data were processed

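RNA was sequenced from 6 libraries of K562 clones, 3 of the 2KR-MYB rescue and 3 of the ANAA-MYB rescue. According to the submitters' processing notes and the methods, the authors made strand-specific poly(A) libraries, trimmed the reads with Trimmomatic 0.36 after bcl2fastq 2.18.0.12, aligned 150 bp pairs to GRCh38 with TopHat2 2.1.1, and deposited FPKM per gene and replicate from Cufflinks and Cuffdiff 2.2.1. The annotation, and how reads shared by several genes or mRNAs shorter than a fragment were weighted, are not given in the sources used, and both bear on FPKM of short, similar genes. Low values under 0.5 FPKM showed no common step (at most 3.74% of ratios in a bin of 1%), so no reads were recovered. The 12 other per-sample columns were not used.

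Symbols were matched by gene ID (55854 of 58288), and positions came from RefSeq. Genes whose mean reached 1 FPKM were compared on log2(FPKM + 1) by linear models (R 4.3.3, limma 3.58.1; empirical Bayes with trend, Benjamini-Hochberg over 12634 genes, threshold 0.01, after the q threshold of the study), and steps were tested on simulated data. An exact permutation test was added for single genes. Members and lists were chosen with earlier results of these data known. Values in every library are given for members past the threshold, the 2 highest genes of each family and the 3 with the smallest difference. They are also given for H2AC8, H2BC13, H2AC15, H3C7, H1-6 and RN7SK, chosen after their values were seen. MYB, H2AC25, CDKN1A, SLBP and NPAT have them too, and the other genes of the lists do not. From each list, at most 5 genes past the threshold are named, plus SLBP, NPAT, H2AZ1 and H3-3B (some genes of the lists are not reported here). Stem-loops (arms of 6 bases, loop of 4, at most 20 bases from a transcript's end) and shared stretches of 150 and 75 bases were searched in the transcripts of GENCODE 44. Of the lists, H2AC18, H2AC19, H2AW and H2BU1, PECAM1 and 8 of 20 RNAs without a poly(A) tail had no match by symbol and were not analysed here. Alternatives were pseudocounts of 0.1 and 0.01, no filter, a mean minimum of 5 FPKM, scaling by upper quartiles, quantile normalization, the replicate number as a block, a threshold of 0.05 and each library left out. Figures were drawn with Python 3.11.15 and matplotlib 3.10.9.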

Additional observations from a re-analysis of the deposited data

How the results depend on the processing

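H2BC15 stayed past the threshold under all 14 alternatives, with log2 differences from 0.39 to 0.48 and adjusted p from 0.000547 to 0.00629 (limma). H2AC8 ranged from -0.66 to -0.40, with adjusted p from 0.00632 to 0.0458. It passed without 2KR-MYB replicate 3, with no filter on low values (adjusted p = 0.00712, in a fit where most of the residual variances were 0) and at 0.05, which gave 2 called members each time. Leaving out a library gave 1 to 2. The numbers of the replicates did not pair the libraries (r of -0.0523, -0.0353 and -0.00258 between same-numbered libraries), and the replicate block left 1 called member and 1089 called genes in all, against 1642 without it. Under this block, the non-histone genes of the interval gave 1 call, histones outside 6p22 gave 0 and chaperones gave 0.

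Signs of small differences changed in 10 genes, none of them past the threshold in either direction. Upper quartile scaling gave 0.032 for H2AC6, 0.028 for H4C5, 0.033 for H4C8 and 0.0055 for H3C10, and quantile normalization gave 0.038 for H2AC6 and 0.026 for H4C8. With a library left out, values on both sides of 0 ran from -0.060 to 0.051 for H2AC6, -0.19 to 0.076 for H1-4, -0.086 to 0.099 for H4C5, -0.043 to 0.041 for H4C8, -0.13 to 0.019 for H4C9, -0.024 to 0.52 for H2AC12, -0.13 to 0.068 for H3C10, -0.048 to 0.32 for H4C11, -0.096 to 0.52 for H2AC15 and -0.095 to 0.13 for H2BC17. The cause was not tested. The median over the members ran from -0.12 (mean of at least 5 FPKM) to 0.041 (without 2KR-MYB replicate 1), and the summed difference from -87.6 to -30.4 FPKM.

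At a threshold of 0.05, 4 of 8 variants and 3 of 30 genes of the histone mRNA list were called. So were 4 of 22 chaperones and 9 of 25 S phase genes, beside 26.9% of all tested genes. Variants gave 1 call with a mean of at least 5 FPKM and under upper quartile scaling and quantile normalization, and chaperones gave 0 with no filter and under upper quartile scaling. With a library left out, interval genes gave 1 to 2, histones outside 6p22 0 to 1 and the histone mRNA list 0 to 1. In the same fits, chaperones gave 0 to 1 and cell cycle exit genes 2 to 4. Read on the strand of the gene alone, the octamer was in 10 promoters and the E2F site in 5. Depth is unknown, so no limit of detection can be given for the genes listed at 0.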
